A study of Mus musculus with 123 samples.

Results

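The genes described here encode enzymes that write or erase marks on histones and on DNA. The rule that picks them uses the gene symbol and no measured value. It takes the genes named Kdm, Kmt, Kat, Hdac, Sirt or Setd followed by a digit and those named Dnmt1 to Dnmt3 or Tet1 to Tet3. Of 13842 genes measured in mouse cortex, 62 met this rule. They comprise 7 lysine acetyltransferases (Kat), 4 class I histone deacetylases, 4 class IIa deacetylases, 3 class IIb or IV deacetylases, 7 sirtuins, 5 Kmt methyltransferases, 9 Setd methyltransferases, 2 demethylases of the Kdm1 type, 15 demethylases with a Jumonji (JmjC) domain, 3 DNA methyltransferases (Dnmt) and 3 Tet genes.

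Histone acetyltransferases place acetyl groups that open chromatin for transcription, and histone deacetylases and sirtuins take them off. Lysine methyltransferases and demethylases set methyl marks that label active promoters, transcribed gene bodies or silenced genes, depending on the lysine. Dnmt proteins methylate cytosine in DNA, and Tet proteins oxidise that methyl group as a first step of its removal. In neurons several of these enzymes are known to respond to activity, and mutations in many of them cause intellectual disability. Not all members act on chromatin in the nucleus. Setd3 methylates actin, Sirt3, Sirt4 and Sirt5 are mitochondrial, and Hdac6 acts mainly on tubulin.

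All animals were male C57BL/6J mice of 11 to 12 weeks kept in light and dark phases of 12 h each, and RNA sequencing and ATAC-seq, which measures open chromatin, were run on the cortex of the same animals, except that 3 animals with RNA (T18N7, T66S3 and T66S5) have no ATAC-seq library here. Controls were left undisturbed and killed at ZT0 (light onset; 8 animals with RNA), ZT3 (3), ZT6 (5), ZT12 (5) or ZT18 (5). Sleep deprivation by gentle handling began at light onset and lasted 6 h. Its 12 groups of 3 mice are named by hours since the start of the preceding baseline day. The ZT0 group pools controls labelled 0 h and 24 h on that scale. T27 mice had been deprived for 3 h and T30 mice for the full 6 h. T36, T42, T48, T54, T60, T66, T72, T78, T192 and T198 mice were taken 6, 12, 18, 24, 30, 36, 42, 48, 162 and 168 h after its end. The sample labels describe T36 mice as still being deprived, while the protocol has them recovering, and the protocol's time is used here. The comparison group was always the undisturbed mice killed at the matching zeitgeber time, so T30, T54, T78 and T198 share the ZT6 controls. The deposited RNA values are log2 normalised levels. The sources used here do not say whether they were scaled by transcript length, so levels are compared between groups and not between genes.

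The labels' protocols state more than 36 M (median 55 M) mappable RNA reads per library. The labels give 2 batches: ZT3, T27, T30, T36, T42, T48, T54, T72 and T78 were in batch 1, T60, T66, T192 and T198 in batch 2, and the other controls in both. Immediate early genes, listed as a check of the deprivation label, were higher for 10 of 12 at T27, 12 of 12 at T30 and 4 of 12 at T36. Bulk cortex was used, so fewer cells of a type and less RNA per cell cannot be told apart. Each RNA value stands for 1 animal, so p-values measure the spread between animals. The ZT0 control T0N5 had a library in each batch, merged into 1 deposited column and fitted as batch 1.

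At T27, 8 of the 62 members (12.9%) rose and 9 (14.5%) fell at an adjusted p below 0.05 (limma, Benjamini-Hochberg over all genes). Of all 13842 genes, 8.21% rose and 7.37% fell in this comparison. At T30, 13 members (21.0%) rose against 16.0% of all genes, and 11 (17.7%) fell against 15.6% of all genes. At T36, 5 members (8.06%) rose against 7.46% of all genes and none fell, against 4.46% of all genes. There 10 members had an unadjusted p below 0.05 in either direction, and the share of all genes at that threshold was not computed. The median change over the members was 0.01 at T27, -0.00 at T30 and -0.00 at T36 on the log2 scale, beside -0.01, -0.00 and 0.00 over all genes. At T30, 4 of the 11 classes held both rises and falls: the acetyltransferases, the Kmt and Setd methyltransferases and the JmjC demethylases. Hdac5, Kdm5c, Kdm6b, Kdm7a, Setd8 and Tet3 rose at both T27 and T30, Hdac1, Kat6b, Kdm6a, Setd2 and Setd5 fell at both, and 0 members changed call from one direction to the other. Without each library of the groups compared in turn, 6 of the 8 rises and 3 of the 9 falls at T27 held throughout, as did 8 of the 13 rises and 2 of the 11 falls at T30. The calls of Kat6b, Kdm3a, Kdm5c, Kdm6b, Kdm7a, Setd1a, Setd8 and Tet3 at T27, of Hdac5, Kdm5c, Kdm6b, Kdm7a, Setd2, Setd7, Setd8 and Tet3 at T30, and of Kat7 and Setd7 at T36 held under every alternative run. Fitted on only the groups compared, 3 members fell at T27 and 2 at T30, and with batch 1 libraries alone 7 fell at T30 and 3 rose at T36. The number of members that fell at T27 was 5 without control T3N4, the number that fell at T30 was 7 without T30S1, 7 without T30S3 and 5 without T30S4, and the number that rose at T36 was 2 without T36S1 and 3 without T36S2. Hdac11 fell at T36 when control T12N4 was left out (-0.16, adjusted p = 0.0394).

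**Figure D1:**
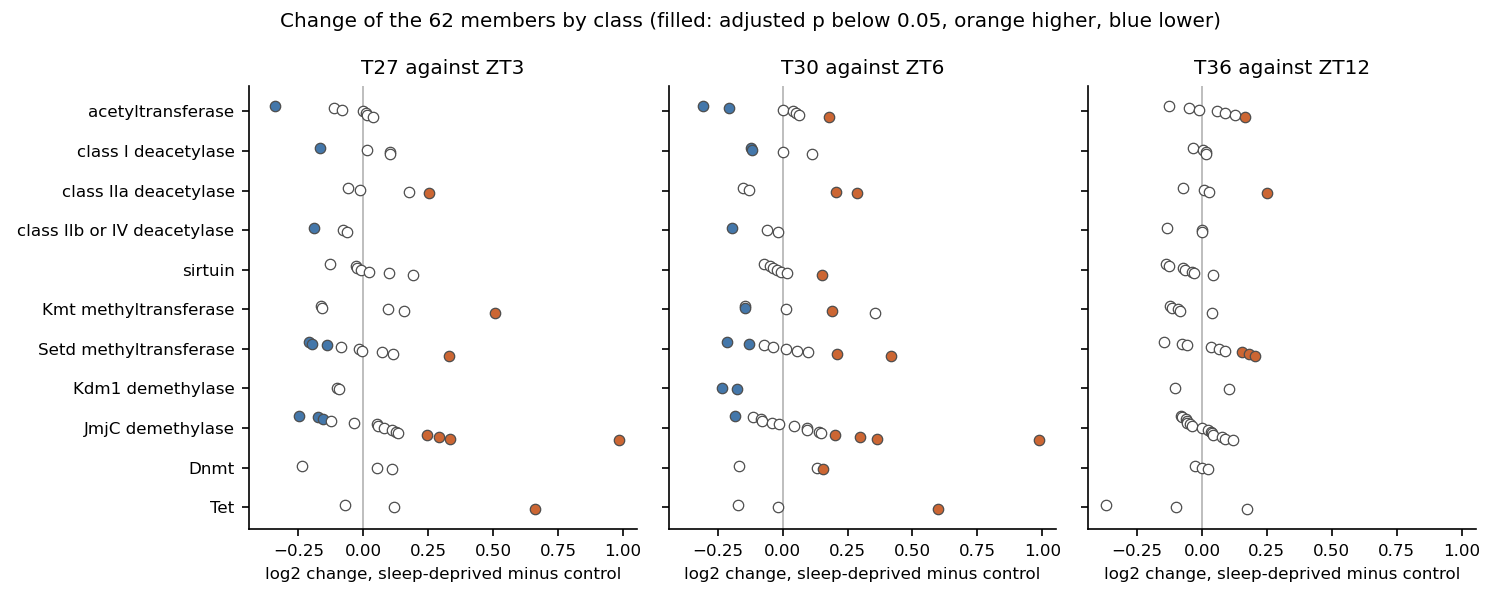
Each circle is 1 of the 62 members, placed by its log2 change (deprived minus control of the same time of day, x axis) and its enzyme class (y axis); filled circles had an adjusted p below 0.05 (orange higher, blue lower). Kdm6b among the JmjC demethylases (0.99 at both T27 and T30) and Tet3 (0.66 and 0.60) lie furthest to the right, and the spread is narrower at T36.

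Among the 15 JmjC demethylases, 4 rose and 3 fell at T27, 4 rose and 1 fell at T30, and 0 changed at T36. Kdm6b, which removes the methyl mark that Polycomb complexes place on histone H3, rose most of all members. Its log2 level was 3.33, 3.42 and 3.09 in the ZT3 controls and 4.05, 4.37 and 4.38 in the T27 mice. At ZT6 the controls had 3.55, 2.97, 3.20, 3.08 and 2.85, and the T30 mice 4.23, 4.00 and 4.10. Every deprived library lay above every control at both times, and the change was 0.99 ± 0.18 (SE; 1.98-fold, adjusted p = 0.000137) at T27 and 0.99 ± 0.17 (1.98-fold, adjusted p = 1.09e-05) at T30. At T36 the 3 libraries had 3.49, 2.73 and 3.36 against 3.15 to 3.43 in the ZT12 controls, and the groups overlapped (change -0.06 ± 0.17, adjusted p = 0.872).

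Kdm5c, an X-linked eraser of the methyl mark of active promoters, had 4.47, 4.42, 4.42, 4.60 and 4.28 in the ZT6 controls and 4.74, 4.86 and 4.80 in the T30 mice. The groups did not overlap at T30 or at T27, and the rise was 0.36 ± 0.07 at T30 (adjusted p = 7.61e-05) and 0.29 ± 0.08 at T27 (adjusted p = 0.00601). Kdm7a, an eraser of repressive methyl marks, rose by 0.33 ± 0.08 at T27 and 0.30 ± 0.08 at T30 (adjusted p = 0.00348 and 0.00207), again without overlap. Kdm3a, which also removes a repressive mark, rose at T27 (0.24 ± 0.06, adjusted p = 0.00482), and at T30 its change of 0.14 had an adjusted p of 0.0548 and passed without control J76N1 (0.0371) or T6N3 (0.0358) or without T30S3 (0.0423). Kdm2a, which binds unmethylated CpG islands, rose at T30 (0.20 ± 0.07, adjusted p = 0.0193), a call that ended without control T6N4 (adjusted p = 0.0913) or T30S4 (0.141). The calls of Kdm6b, Kdm5c, Kdm7a and Kdm3a held without any single library of their groups. Kdm5c and its Y-linked relative Kdm5d are similar in sequence, as are Kdm6a and the Y-linked Uty, and the sources used here do not say how reads were split between them.

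Kdm6a, the X-linked relative of Kdm6b with the same substrate, fell while Kdm6b rose. Its levels were 3.94, 4.00 and 4.15 at ZT3 against 3.86, 3.69 and 3.80 at T27 (-0.25 ± 0.07, adjusted p = 0.00931), with no overlap. At T30 they were 3.88, 3.77 and 3.94 against 4.15, 3.89, 4.02, 4.04 and 4.12, where the groups overlapped (-0.18 ± 0.06, adjusted p = 0.0225). The T27 call ended without control T3N4 (adjusted p = 0.104) or T27S3 (0.0713), and the T30 call without J76N1 (0.0526), T6N4 (0.0657) or T30S3 (0.155). Kdm4a and Kdm3b, erasers of repressive methyl marks, fell at T27, by 0.17 and 0.16 (adjusted p = 0.0076 and 0.000582). The call of Kdm3b held without any single library, and that of Kdm4a ended without control T3N2 (adjusted p = 0.0546). Of the other JmjC members, Kdm2b, Kdm4b, Kdm4c, Kdm5a, Kdm5b, Kdm5d and Kdm8, none passed the test at these 3 times with all libraries. Kdm5d passed at T27 without T27S3 (0.19, adjusted p = 0.0238).

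The demethylases of the Kdm1 type use flavin and not a JmjC domain, and both fell at T30. Kdm1b had 2.76, 2.88, 2.87, 2.83 and 2.73 in the ZT6 controls and 2.58, 2.49 and 2.68 in the T30 mice, without overlap (-0.23 ± 0.07, adjusted p = 0.00681). Kdm1a, a subunit of the CoREST corepressor complex, had 6.06, 6.29, 6.27, 6.15 and 6.29 against 6.02, 6.03 and 6.06, where the highest T30 library reached the lowest control (-0.18 ± 0.05, adjusted p = 0.0097). The Kdm1a call held without any single library, and that of Kdm1b ended without T30S3 (adjusted p = 0.0672). At T27 the changes of -0.09 (Kdm1a) and -0.10 (Kdm1b) did not pass the test.

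**Figure D2:**
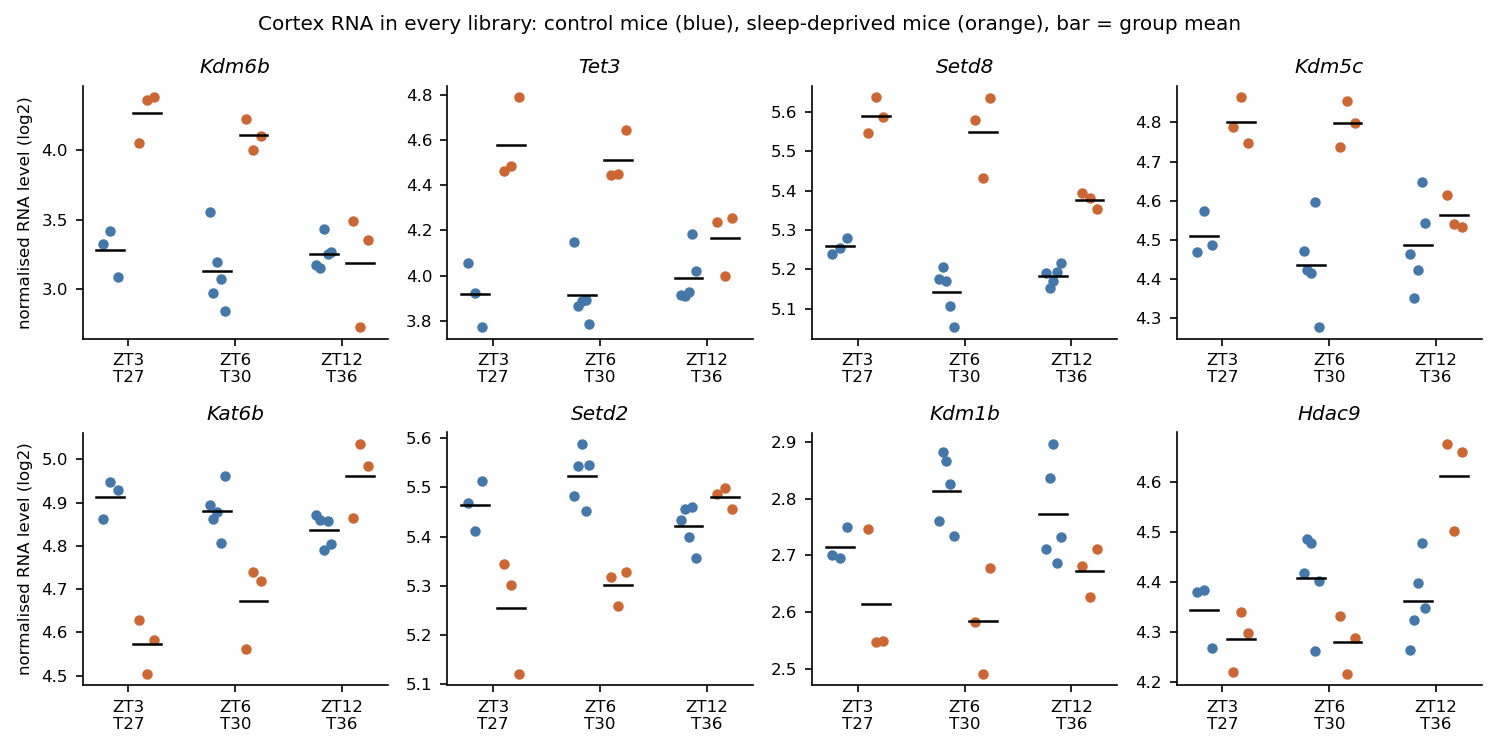
Normalised RNA level (log2, y axis) of 8 members in each library of the ZT3, ZT6 and ZT12 controls (blue) and the T27, T30 and T36 mice (orange), with group means as bars. The orange points of Kdm6b, Tet3, Setd8 and Kdm5c lie above all blue points at T27 and T30, those of Setd2 and Kat6b below, and those of Hdac9 above at T36.

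Of the genes acting on DNA methylation, Tet3 alone among the 3 Tet genes passed the test. Its level was 4.06, 3.92 and 3.77 at ZT3 and 4.46, 4.48 and 4.79 at T27, then 4.15, 3.86, 3.89, 3.89 and 3.79 at ZT6 and 4.45, 4.45 and 4.64 at T30. Neither pair of groups overlapped, and the rise was 0.66 ± 0.12 (1.58-fold, adjusted p = 7.61e-05) at T27 and 0.60 ± 0.11 (1.52-fold, adjusted p = 2.49e-05) at T30, calls that held without any single library. At T36 the change was 0.17 ± 0.11 (adjusted p = 0.316). Tet1 changed by 0.12, -0.02 and -0.37 and Tet2 by -0.07, -0.17 and -0.10 at T27, T30 and T36, and neither passed; the difference between Tet genes was not tested. Among the Dnmt genes, Dnmt1, which copies methylation onto newly made DNA, rose at T30 from 4.71, 4.64, 4.61, 4.77 and 4.62 to 4.78, 4.90 and 4.79 (0.16 ± 0.05, adjusted p = 0.00607). That call ended without T30S3 (adjusted p = 0.0757). The de novo enzymes Dnmt3a and Dnmt3b did not pass at T27, T30 or T36.

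Of the 5 Kmt genes, which encode the large enzymes of the promoter and enhancer methyl marks and relatives, Kmt2a rose at T27. It had 5.05, 4.90 and 4.98 at ZT3 and 5.36, 5.35 and 5.74 at T27 (0.51 ± 0.16, 1.42-fold, adjusted p = 0.0246). This call ended without controls T3N3 (adjusted p = 0.0812) or T3N4 (0.0649) or without T27S5 (0.171). At T30 the Kmt2a change of 0.36 had an adjusted p of 0.0615, and it passed without control J76N1 (0.0346) or T30S1 (0.0461). Kmt2d, the methyltransferase mutated in Kabuki syndrome, rose at T30 (0.19 ± 0.06, adjusted p = 0.0122), a call that ended without T6N4 (0.0588) or T30S1 (0.0907). Kmt2e fell at T30 (-0.14 ± 0.06, adjusted p = 0.0417), a call that ended without J76N1, T6N4, T30S1 or T30S4 (adjusted p = 0.0739 to 0.136). Kmt2b and Kmt2c did not pass, and no Kmt gene passed at T36.

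Among the 9 Setd genes, Setd8 (RefSeq symbol Kmt5a), which places a single methyl group on histone H4, was the only member that rose at T27, T30 and T36. Its levels at those times were 5.55, 5.64 and 5.59, then 5.58, 5.43 and 5.64, then 5.39, 5.38 and 5.35. The controls had 5.24, 5.26 and 5.28 at ZT3, 5.18, 5.21, 5.17, 5.11 and 5.05 at ZT6 and 5.19, 5.15, 5.17, 5.19 and 5.22 at ZT12. No deprived library reached the range of its controls. The rise was 0.33 ± 0.07 (adjusted p = 0.000393), 0.42 ± 0.06 (8.3e-07) and 0.20 ± 0.06 (0.0226), and the T36 call ended without T36S1 (0.0976) or T36S2 (0.0627). Setd7, a methyltransferase of histone H3 and of other proteins, rose at T30 (0.21 ± 0.04, adjusted p = 4.98e-05) and at T36 (0.18 ± 0.04, 0.00123, with overlapping groups), and both calls held without any single library.

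Setd2, which trimethylates histone H3 along transcribed genes, fell. It had 5.47, 5.41 and 5.51 at ZT3 against 5.34, 5.30 and 5.12 at T27 (-0.21 ± 0.06, adjusted p = 0.0131), and 5.48, 5.54, 5.59, 5.45 and 5.55 at ZT6 against 5.32, 5.26 and 5.33 at T30 (-0.22 ± 0.06, 0.00222). The groups did not overlap at either time. The T30 call held without any single library, and the T27 call ended without T3N4 (0.073) or T27S5 (0.16). Setd1a, a subunit of a promoter methyltransferase complex, fell at T27 (-0.20 ± 0.05, adjusted p = 0.0068) and rose at T36 (0.16 ± 0.05, 0.0253). The fall held without any single library; the rise ended without T12N4 (0.0701), T12N5 (0.0516), T36S1 (0.0515) or T36S2 (0.176). Setd5, a SET domain gene mutated in intellectual disability, fell by 0.14 at T27 (adjusted p = 0.0493) and 0.13 at T30 (0.0279). The T27 call of Setd5 ended whichever of the 6 libraries compared was left out (0.0542 to 0.146), and its T30 call without T6N2, T6N4, T30S1 or T30S4 (adjusted p = 0.0582 to 0.155). Setd1b, Setd3, Setd4 and Setd6 passed at none of the 3 times in the main fit. Setd3 passed at T30 once library medians were set equal (-0.085, limma adjusted p = 0.047). It also passed there with the animal number as a replicate block (-0.085, 0.0465).

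Kat6b, an acetyltransferase of the MYST family whose loss causes developmental disorders, was the acetyltransferase that fell at both T27 and T30. Its levels were 4.86, 4.95 and 4.93 at ZT3 against 4.63, 4.50 and 4.58 at T27, and 4.89, 4.86, 4.88, 4.81 and 4.96 at ZT6 against 4.56, 4.74 and 4.72 at T30. The groups were separate at both times (-0.34 ± 0.07, adjusted p = 0.000319, and -0.21 ± 0.06, 0.00909). The T27 call held without any single library, while the T30 call ended without T30S1 (0.109). Kat2b, the coactivator acetyltransferase also called PCAF, fell at T30 (-0.31 ± 0.12, adjusted p = 0.0495) with overlapping groups, and this call ended without J76N2, T6N2, T6N3, T30S3 or T30S4 (0.0811 to 0.269). Kat8, which acetylates histone H4, rose at T30 (0.18 ± 0.05, adjusted p = 0.00559). Kat7, an H3 and H4 acetyltransferase of the MYST family, rose at T36, with 5.86, 5.78 and 5.77 against 5.62, 5.60, 5.65, 5.67 and 5.68 (0.17 ± 0.03, adjusted p = 0.000761). The calls of Kat7 and Kat8 held without any single library. Kat2a, Kat5 and Kat6a did not pass.

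The class IIa deacetylases shuttle between nucleus and cytoplasm with neuronal activity and repress targets of MEF2 transcription factors. Hdac5 had 6.57, 6.40, 6.51, 6.46 and 6.28 at ZT6 and 6.72, 6.77 and 6.70 at T30, without overlap. It rose by 0.29 ± 0.07 at T30 (adjusted p = 0.000955) and 0.25 ± 0.07 at T27 (0.0145). The T30 call held without any single library, and the T27 call ended without T3N4 (0.0871) or T27S5 (0.0772). Hdac4 rose at T30 (0.20 ± 0.08, adjusted p = 0.048) with overlapping groups, and this call ended without J76N2, T6N4, T30S3 or T30S4 (0.14 to 0.193). Hdac9 followed another course. Its level was 4.33, 4.22 and 4.29 at T30 against 4.42, 4.49, 4.48, 4.26 and 4.40 at ZT6 (-0.13, adjusted p = 0.114), and 4.68, 4.50 and 4.66 at T36 against 4.26, 4.32, 4.40, 4.48 and 4.35 at ZT12. The T36 groups did not overlap (0.25 ± 0.06, 1.19-fold, adjusted p = 0.00492), and that call ended without T36S1 (0.0572). The Hdac9 change at T30 passed without control T6N3 (-0.17, 0.0347). Hdac7 had a change of -0.15 at T30 (adjusted p = 0.0563) and passed there without T6N4 (-0.20, 0.0155).

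The class I deacetylases Hdac1 and Hdac3 are the catalytic subunits of the main corepressor complexes. Hdac1 had 5.15, 5.00 and 5.06 at ZT3 against 4.98, 4.90 and 4.81 at T27 (-0.17 ± 0.05, adjusted p = 0.023), and its fall at T30 was 0.12 (0.0496) with overlapping groups. The T27 call ended without T3N2, T3N4 or T27S5 (0.0528 to 0.165), and the T30 call without J76N2, T6N2, T6N3, T30S1, T30S3 or T30S4 (0.0523 to 0.189). Hdac3 fell at T30 (-0.12 ± 0.04, adjusted p = 0.00779), and not without T30S4 (0.0687). Hdac6, the tubulin deacetylase, fell at T27 (-0.19 ± 0.06, 0.0182), a call that ended without T3N3, T27S2 or T27S3 (0.057 to 0.0963). Hdac10, a polyamine deacetylase, fell at T30 (-0.20 ± 0.06, 0.0109), and not without T30S4 (0.0909). Of the 7 sirtuins, which need NAD, Sirt7 rose at T30 (0.15 ± 0.06, adjusted p = 0.036), and that call ended without J76N1, T6N3 or any T30 library (0.0577 to 0.11). Sirt1 had a change of 0.19 at T27 (adjusted p = 0.077) and passed without T27S3 (0.24, 0.0475). Hdac2, Hdac8 and Hdac11 and the other sirtuins did not pass at T27, T30 or T36 with all libraries.

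The effect of deprivation was then compared between neighbouring times with a test of the difference itself. Between T27 and T30, 0 members differed (limma), against 0.00722% of all genes. Without adjustment 6 members had a limma p below 0.05, and the share of all genes at that threshold was not computed. Between T30 and T36, 8 members (12.9%) differed, against 11.4% of all genes. Kdm6b lost its rise (difference -1.05 ± 0.23 SE, adjusted p = 0.00162). Hdac5, Kdm2a and Kdm5c also moved down, by -0.36, -0.28 and -0.28. Hdac9 moved up most (0.38 ± 0.09, adjusted p = 0.00212), and Kat6b, Kdm1a and Setd2, all lower at T30, moved up by 0.33, 0.28 and 0.28. When each of the 16 libraries was left out in turn, the difference for Hdac5 was lost once (without T36S2), that for Kdm2a 8 times and that for Kdm5c 10 times. The differences for Hdac9, Kat6b, Kdm1a, Kdm6b and Setd2 passed every time. The Tet3 difference of -0.42 (adjusted p = 0.0528) passed without control J76N1 (-0.49, adjusted p = 0.0234) or T12N2 (-0.45, 0.0481). Sirt7, Dnmt1, Setd8 and Kdm7a also passed without some single libraries.

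From T42 onwards few members differed from controls. At T42, Hdac9 was still higher, with 4.31, 4.46 and 4.58 against 4.23, 4.21, 4.27, 4.20 and 4.16 at ZT18 (0.24 ± 0.06, adjusted p = 0.0468); 0.614% of all genes were higher there. This adjusted p rose to between 0.0573 and 0.0895 without each of the 5 ZT18 controls, to 0.114 without T42S4 and to 0.371 without T42S6. It also passed 0.05 without J70N1, J70N2, T0N1 or T0N8 of the ZT0 group, which shares the fit (highest 0.0532). At T48, Hdac7 was lower, with 5.36, 5.46 and 5.48 against 5.49 to 5.76 in the 8 ZT0 controls (-0.24 ± 0.06, adjusted p = 0.0217); 0.701% of all genes were lower. That call ended without T0N2, T48S1, T48S3 or T48S4 (0.0524 to 0.147). In the 7 comparisons from T54 to T198, 0 of 434 member tests passed (limma), against 0.0155% of all tests. Without adjustment 46 member tests had a limma p below 0.05, and the share of all tests at that threshold was not computed.

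**Figure D3:**
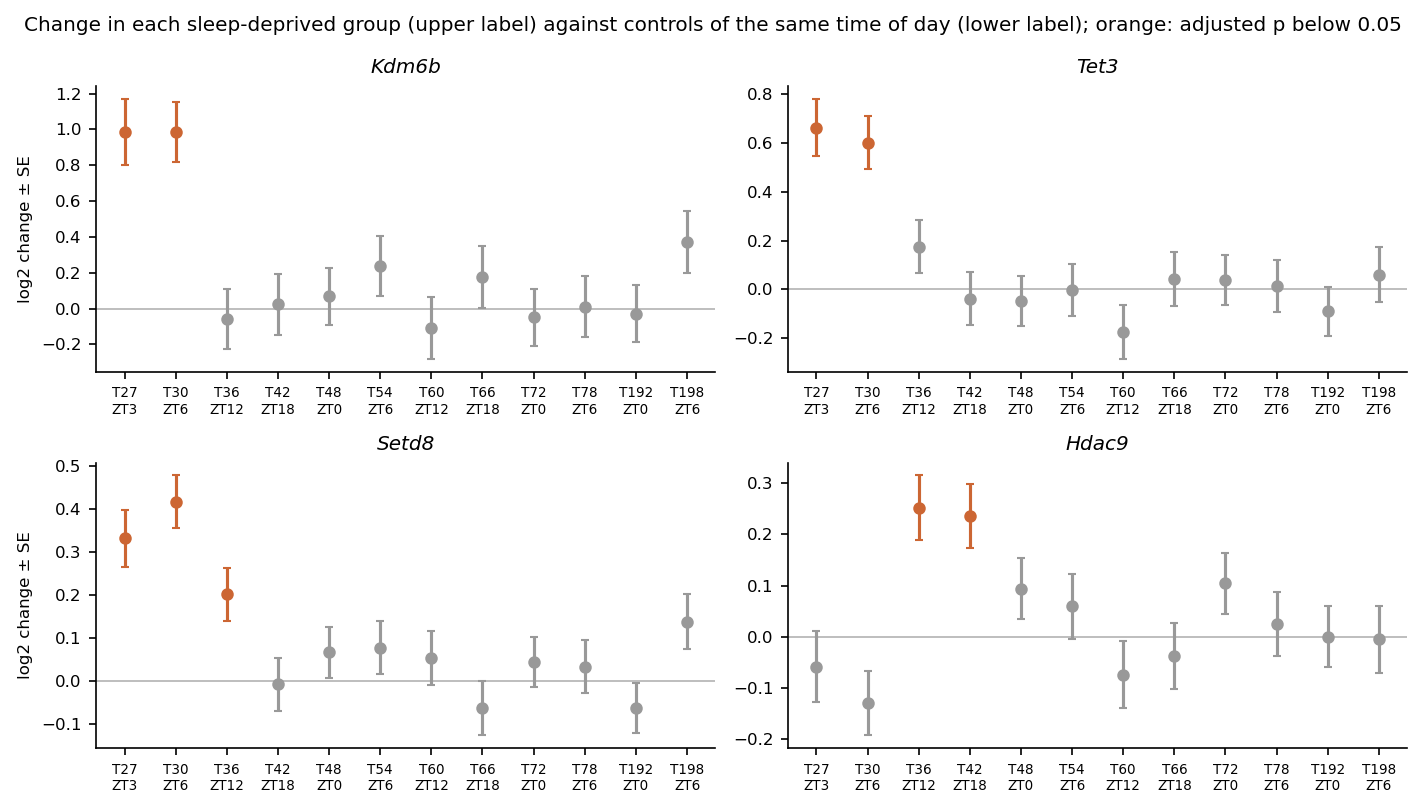
Log2 change ± SE (y axis) of Kdm6b, Tet3, Setd8 and Hdac9 in each of the 12 deprived groups against time-matched controls (x axis labels), with orange points at an adjusted p below 0.05. Kdm6b and Tet3 passed at T27 and T30, Setd8 also at T36, and Hdac9 at T36 and T42.

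In undisturbed controls, 29 of the 62 members (46.8%) varied with time of day (limma F-test over ZT0, ZT3, ZT6, ZT12 and ZT18, adjusted p below 0.05), against 40.7% of all genes. Leaving out single controls gave 25 to 31 members. Of the 29, 9 were highest at ZT18, 7 at ZT0, 6 at ZT6, 4 at ZT3 and 3 at ZT12, and 12 were lowest at ZT6 and 8 at ZT18. The widest ranges of group means were those of Kdm6b (0.66), Kmt2a (0.47), Tet3 (0.36), Setd4 (0.31), Setd8 (0.30), Hdac5 (0.29), Setd2 (0.28) and Kdm5c (0.27). Kdm6b ran from a mean of 3.78 ± 0.27 (SD, n = 8) at ZT0 to 3.13 at ZT6, with single libraries from 3.39 to 4.26 at ZT0 and from 2.85 to 3.55 at ZT6, so these groups overlapped. Kmt2a, Tet3, Setd8 and Kdm5c were likewise highest at ZT0 and lowest at ZT6, and Hdac5 was highest at ZT18 and lowest at ZT6. Setd2 had the opposite course, highest at ZT6 (5.52) and lowest at ZT18 (5.24), where the libraries of both groups were separate. Setd4, a SET domain gene, was highest at ZT3 (3.79) and lowest at ZT0 (3.48).

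Between ZT18 and ZT6, when mice are mostly awake and mostly asleep, 15 members were higher at ZT18 (24.2%, against 15.4% of all genes) and 10 lower (16.1%, against 14.3%). Those higher included Setd8 (0.29 ± 0.05, adjusted p = 2.27e-05), Hdac5 (0.29 ± 0.06), Kdm5c (0.27 ± 0.06) and Kat8 (0.23 ± 0.04). Those lower included Setd2 (-0.28 ± 0.05, adjusted p = 9.38e-06), Kdm1b (-0.24 ± 0.06), Hdac9 (-0.19 ± 0.05) and Kat6b (-0.19 ± 0.05). This comparison uses the same ZT6 controls as T30, so the changes are given side by side and were not correlated. Kdm6b stood at 3.39 to 4.26 in the ZT0 controls and at 4.00 to 4.23 in the T30 mice, and Tet3 at 3.99 to 4.67 and at 4.45 to 4.64. The T30 libraries of both genes thus lay within the range of undisturbed mice at light onset, a comparison across times of day that was not tested. At T27, Kdm6b stood at 4.05 to 4.38 and Tet3 at 4.46 to 4.79. The highest T27 libraries of both genes thus lay above the ZT0 range, which was not tested either.

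**Figure D4:**
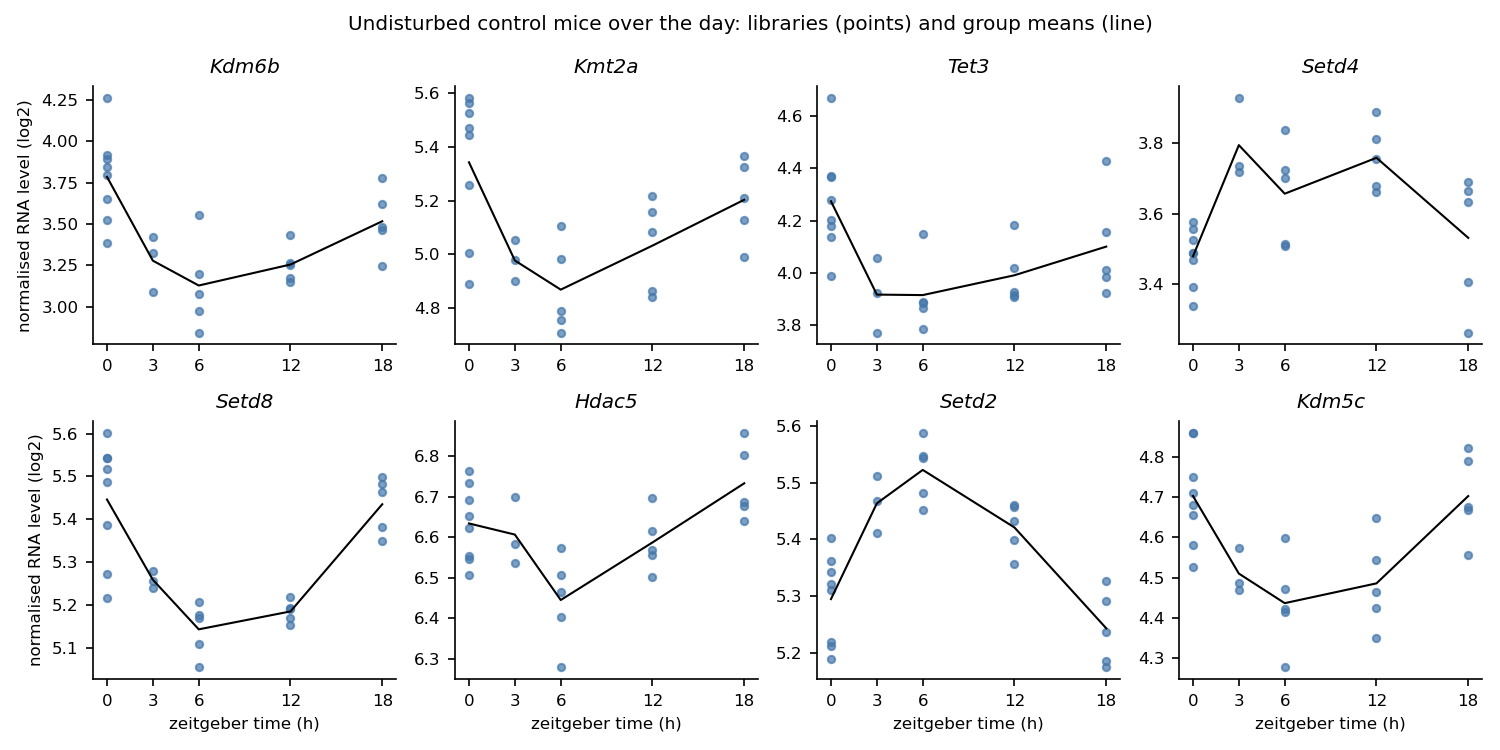
Normalised RNA level (log2, y axis) of the 8 members with the widest daily range, in each control library (points) and as group means (line) over zeitgeber time (x axis, hours). Kdm6b, Kmt2a, Tet3, Setd8 and Kdm5c dip at ZT6, whereas Setd2 peaks there.

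Other genes of the same pathways, which the symbol rule does not take in, were described from lists, chosen with results of these data known, of partners, readers and further enzymes (136 measured). Of these, 19 rose and 8 fell at T27, 30 rose and 15 fell at T30, and 6 rose and 8 fell at T36. These are 14.0% and 5.88% at T27, 22.1% and 11.0% at T30, and 4.41% and 5.88% at T36, beside 8.21% and 7.37%, 16.0% and 15.6%, and 7.46% and 4.46% of all genes. The single lists are short and their counts are descriptions, to be read against those shares of all genes. Among 20 genes listed under methyl-DNA reading and removal, 7 rose and 3 fell at T30. Gadd45b and Gadd45a, stress-induced genes linked to DNA demethylation, rose by 0.69 ± 0.14 and 0.68 ± 0.19 (adjusted p = 0.000187 and 0.00451). Idh1 fell by 0.25, Idh2 by 0.23 and L3mbtl1, whose place on this list was not checked, by 0.40. Among 22 deacetylase partners, 5 rose and 5 fell at T30. Sap30 (0.54 ± 0.16), a corepressor subunit, rose, while the CoREST genes Rcor2 and Rcor3 fell by 0.42 and 0.32. Of 23 Polycomb genes, 5 rose and 0 fell at T30 (limma), among them Rybp (0.32, adjusted p = 0.000108) and Bmi1 (0.31, 0.0205). At T27, 4 Polycomb genes rose and 1 fell, which was Ezh2 (-0.39), and at T36, 1 rose and 3 fell. Of 18 further lysine methyltransferases, 2 rose and 4 fell at T30; Dot1l, which methylates the globular part of histone H3, rose by 0.46 ± 0.07 and Prdm2 by 0.39, and Smyd2 and Smyd3 fell by 0.23 each. Dot1l also rose at T27 (0.33) and T36 (0.33). Further demethylases (6 measured) gave 3 rises and no fall at T30, led by Hr (0.40 ± 0.08) and Jmjd6 (0.32 ± 0.08).

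Of 10 Kmt2 complex subunits, Hcfc2 (0.29 ± 0.07) and Cxxc1 (0.22 ± 0.05) rose at T30 and none fell. Of 14 acetyl-lysine readers, 3 rose, led by Mllt1 (0.33 ± 0.07) and Mllt3 (0.28 ± 0.11), and Brd2 fell by 0.12. Of 16 acetyltransferases and partners outside the Kat names, 2 rose and 2 fell at T30; Jade2 rose by 0.45 ± 0.08 and Ep300, the activity-linked coactivator, by 0.15 ± 0.06, and Brpf3 and Jade1 fell by 0.31 and 0.18. Of 7 arginine methyltransferases, Prmt2 rose at T30 (0.24, adjusted p = 0.0106).

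Markers of other cell types moved in places with the same comparisons. At T27, 3 of 3 choroid plexus markers and 3 of 6 meningeal markers were lower. The summed choroid plexus level was 164 to 378 in the ZT3 controls and 137 to 150 in the T27 mice, and the meningeal sum 47.3 to 67.4 and 37.7 to 44.8. The choroid plexus sum was also lower, without overlap, at T30 (157 to 176 in controls and 147 to 148) and T36 (164 to 171 and 152 to 153). Of its 3 markers, 1 was lower at T30, which was Enpp2 (-0.18, limma adjusted p = 0.00508), and 0 at T36 (Enpp2 -0.14, 0.0551). Ttr and Kl changed by -0.22 and 0.04 at T30 and by 0.04 and 0.06 at T36, and neither passed. The sums at T30 and T36 thus do not show that all 3 markers were lower. The mural sum was lower at T27 without overlap (167 to 189 and 162 to 166), with 1 of 6 markers lower. Ttr, the defining choroid plexus transcript, had log2 levels of 7.54, 4.66 and 2.95 in the ZT3 controls and 1.70, 1.51 and 2.29 in the T27 mice, with T3N2 far above the others. At T30, 3 of 8 oligodendrocyte markers were lower (summed level 2044 to 2656 in controls and 1808 to 2432 in deprived mice), and of 8 microglial markers 3 were lower and 1 higher (199.98 to 210 and 191 to 199). Of 8 inhibitory neuron markers, 3 were higher at T30 and 2 at T36, and of 7 oligodendrocyte precursor markers 2 were higher at T30. At T36, 2 of 7 endothelial markers, the astrocyte marker Gfap, the mural marker Acta2 and the microglial marker C1qa were higher, and 1 of 8 oligodendrocyte markers was lower (2041 to 2577 and 1906 to 2060). Excitatory neuron sums overlapped at T27, T30 and T36 (2582 to 2715 and 2602 to 2754; 2583 to 2751 and 2569 to 2707; 2509 to 2822 and 2663 to 2804). Among the 8 excitatory neuron markers, Neurod6 was higher at T27 (0.44) and T30 (0.43), and Tbr1 was lower at T27 (-0.17). No marker in these lists was at 0. The part of these shifts in the members' changes was not tested.

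For 50 of the 62 members the RefSeq table (build GRCm38.p6) gave promoter windows, 73 in all. The promoter results do not cover the other 12, which are Hdac1, Hdac3, Hdac10, Kat6a, Kdm2a, Kdm3b, Kdm4b, Kdm5a, Kdm6b, Kmt2b, Kmt2e and Setd1b. The 250 bases before the start are shown for 4 members, because the ATAC-seq peaks tested next cover them. These members had the largest rises at T30 that passed the test, among those with a single window. Capitals mark matches to the motifs searched on both strands: TGACGTCA (the cyclic AMP response element, CRE), TGACG (the core of the CRE), CACGTG (E-box), TGANTCA (AP-1) and GGGCGG (GC box), where the CRE contains its core.
Tet3: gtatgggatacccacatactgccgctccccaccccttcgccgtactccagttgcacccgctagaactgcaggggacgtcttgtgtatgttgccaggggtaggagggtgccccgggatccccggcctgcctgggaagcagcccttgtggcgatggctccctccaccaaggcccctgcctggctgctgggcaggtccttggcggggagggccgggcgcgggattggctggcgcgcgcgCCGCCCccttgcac
Kdm5c: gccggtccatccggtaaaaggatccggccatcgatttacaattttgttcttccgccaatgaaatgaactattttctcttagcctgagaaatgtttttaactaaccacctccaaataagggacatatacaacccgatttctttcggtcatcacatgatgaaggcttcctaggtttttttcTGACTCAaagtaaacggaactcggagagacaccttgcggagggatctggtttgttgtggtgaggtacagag
Kdm7a: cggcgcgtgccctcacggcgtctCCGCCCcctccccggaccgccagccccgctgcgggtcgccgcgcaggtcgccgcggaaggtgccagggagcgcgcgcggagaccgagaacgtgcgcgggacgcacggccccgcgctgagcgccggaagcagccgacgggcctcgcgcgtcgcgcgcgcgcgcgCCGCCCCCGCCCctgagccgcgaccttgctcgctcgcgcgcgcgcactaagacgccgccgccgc
Hdac5: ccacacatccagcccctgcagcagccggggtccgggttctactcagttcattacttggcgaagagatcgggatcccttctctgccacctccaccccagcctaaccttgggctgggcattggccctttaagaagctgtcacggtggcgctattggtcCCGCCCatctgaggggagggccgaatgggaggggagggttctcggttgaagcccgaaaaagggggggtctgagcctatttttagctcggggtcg

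These windows lie at chr6:83441679-83441928 (Tet3, minus strand), chrX:152232977-152233226 (Kdm5c, plus strand), chr6:39206774-39207023 (Kdm7a, minus strand) and chr11:102230173-102230422 (Hdac5, minus strand). The Kdm5c window holds 1 AP-1 match and 10 CpG pairs, and the Kdm7a window 3 GC box matches and 56 CpG pairs. Tet3 and Hdac5 have 1 GC box match each. None of the 4 holds a CRE, its core or an E-box. Over all 32851 windows of the same length, 1.55% hold the CRE, 17.8% its core, 6.02% the E-box, 6.75% the AP-1 motif and 32.7% the GC box. Over the 73 member windows the shares were 0%, 23.3%, 6.85%, 8.22% and 61.6%, with a median of 17 CpG pairs against 6 in all windows. A match is a string of letters and no evidence of binding.

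Open chromatin was compared at 60 ATAC-seq peaks lying within 1000 bp of a RefSeq-listed start of 47 members, as log2(signal + 0.5). None of the 60 passed at T27, T30 or T36 (limma, adjusted over 130727 peaks), and 3 (5%) had an unadjusted p below 0.05 at each time, beside 11.1%, 15.1% and 12.3% of all peaks. Of all peaks, 0.658% were higher and 0.0314% lower at T27, 2.18% and 0.427% at T30, and 0.261% and 0.357% at T36. Of the 14827 peaks at any gene start, 0.0944% were higher and 0.0135% lower at T27. Their shares were 0.418% and 0.371% at T30, and 0.0944% and 0.054% at T36. The unadjusted share was not computed for peaks at gene starts. The median change over the promoter peaks was -0.13 at T27, -0.14 at T30 and -0.01 at T36, beside -0.13, -0.10 and 0.01 over the 14827 peaks at any gene start. At Kdm5c the peak at the printed window changed by -0.25 ± 0.14 at T30 (adjusted p = 0.374), at Kdm7a by -0.20 ± 0.16 (0.616), at Hdac5 by -0.36 ± 0.21 (0.417), and at Tet3 by -0.28 ± 0.17 (0.441), while their RNA rose. That Tet3 peak also overlaps B230319C09Rik and the Hdac5 peak Mir8101. The Tet3 window lies inside the gene span, which ends at 83457208, so it does not cover the outer end of the gene. Tet3 had 2 promoter peaks, and only the one at the window is given. A missed threshold does not show that accessibility was equal. With edgeR on the recovered reads of 51 libraries, 1 promoter peak passed (Kmt2d at T30, -0.67, adjusted p = 0.0451, chr15:98871614-98872676), and without T30S3, 1 other passed (Hdac7 at T30, -1.11, adjusted p = 0.00976, chr15:97830458-97831077).

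Another 387 peaks lay within 56 members or their 5000 bp flanks. Of these, 2 rose at T27, 7 rose and 2 fell at T30, and 2 fell at T36. Of all peaks, 0.658% rose at T27, 2.18% rose and 0.427% fell at T30, and 0.357% fell at T36. An unadjusted p below 0.05 (limma) was reached by 8.27%, 14.2% and 10.6% of the 387 at T27, T30 and T36. The shares of all peaks were 11.1%, 15.1% and 12.3%. Of the 59 peaks at Hdac9, 3 rose at T30. The peak at chr12:34075625-34076695, inside the gene, had log2 signals of 3.25, 3.10, 3.25, 3.09 and 2.85 in the ZT6 controls and 4.18, 4.21 and 4.05 in the T30 mice, without overlap (1.00 ± 0.20, adjusted p = 0.000858). This was the only called peak at T30 whose call held without any single library (highest adjusted p 0.0129). The peaks at chr12:34091668-34092467 (also over Gm40384) and chr12:34497541-34498198 rose by 0.76 and 0.55. At T36, when Hdac9 RNA was higher, those 3 peaks changed by 0.04, 0.08 and -0.06 and did not pass, and 2 other peaks in the gene fell, at chr12:34052611-34053598 (-1.08 ± 0.21, adjusted p = 0.00461) and chr12:34403772-34404473 (-0.91, 0.0492).

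Inside Kdm4c 2 peaks rose at T30 (chr4:74264164-74264994 by 0.84 and chr4:74326878-74327387 by 0.90), and inside Kmt2c 1 did (chr5:25296822-25297323, from 2.02 to 2.83 in controls to 3.18 to 3.53, 0.91 ± 0.22, adjusted p = 0.00751). A peak beside Hdac4 rose (chr1:92195752-92196298, 0.83). Peaks in Hdac5 (chr11:102227433-102228054, -0.92 ± 0.24, adjusted p = 0.0203) and across an end of Sirt4 (chr5:115489405-115490647, -0.52, over Gm24265 and Gm24407) fell. The Hdac4 peak starts just past the end of the gene span at 92195702, and the Sirt4 peak covers its span end at 115490264. Both counted as other peaks because neither lay within 1000 bp of a listed start. Unlisted starts at these ends were not examined. At T27 the peaks that rose lay in Dnmt3a (chr12:3823309-3824137, 0.75) and Tet1 (chr10:62850800-62851854, 0.75). None of 11 peaks at Kdm6b (changes from -0.60 to 0.79, smallest adjusted p = 0.109) and none of 23 at Tet3 (-0.28 to 0.80, 0.105) passed at T30. The number of called peaks other than promoters at T30 was 5 without control T6N3, 4 without T6N4, 1 without T30S1 and 2 without T30S4, and 4 with edgeR. Each of these T30 calls except the first Hdac9 peak ended without T30S1, with adjusted p up to 0.361. The T27 calls ended without T3N2, T3N4, T27S3 or T27S5 at Dnmt3a (up to 0.347) and without every library but T3N3 at Tet1 (up to 0.232). The T36 falls at Hdac9 ended without T36S2 (0.0788) at the first peak and without 6 of 8 single libraries at the second (up to 0.205).

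**Figure D5:**
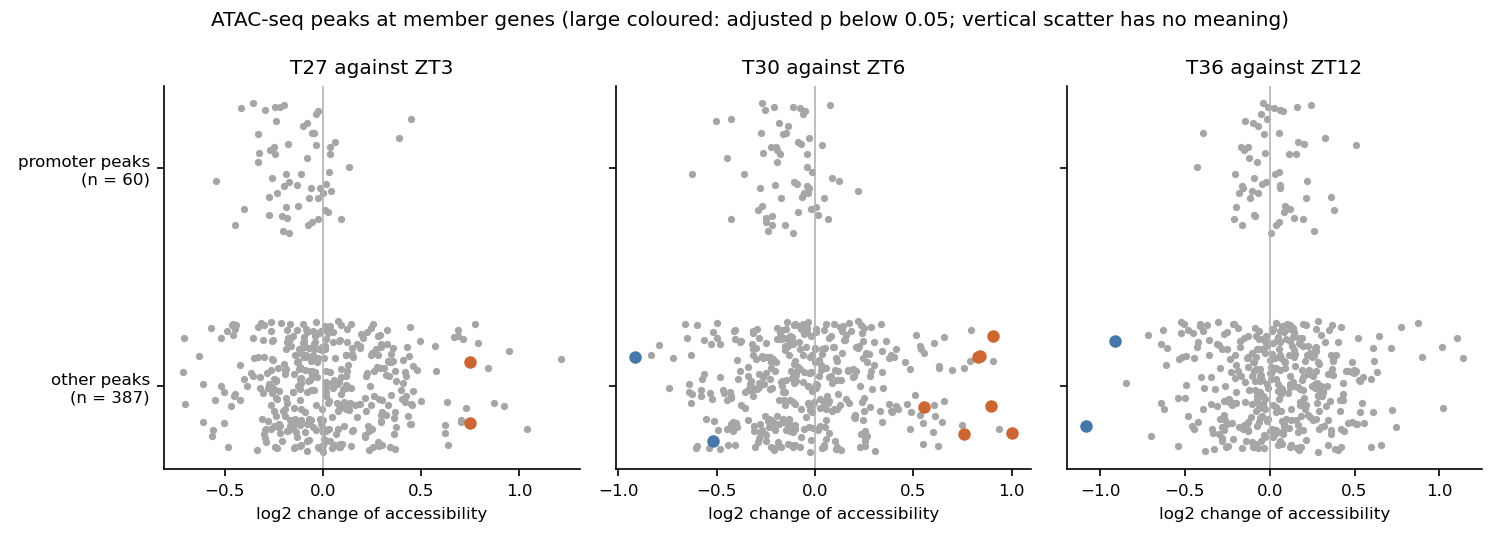
Log2 change of accessibility (x axis) at 60 promoter peaks and 387 other peaks of the members (y axis; vertical scatter carries no value) at T27, T30 and T36, with large coloured points at an adjusted p below 0.05. No promoter point is coloured, and 7 other peaks rose and 2 fell at T30.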

How the data were processed

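RNA was measured in 63 mouse cortex libraries of 62 animals (both libraries of control T0N5 share 1 deposited column), as deposited log2 levels with an offset of 0.5, batch-adjusted before deposit as far as the values show (values below -1 occur in batch 2 only). The submitters' processing notes name kallisto 0.43.0, sleuth 0.29.0, Bowtie2, MACS2 2.1.1, HTSeq 0.6.1, bedtools 2.26.0 and build GRCm38 (mm10); the sources used here do not give their roles. ATAC-seq was deposited as normalised signal per peak (130727 peaks, 60 libraries; the repeat library of control T0N3 in batch 2 was left out, so 59 were used, 1 per animal). In 51 libraries whole reads were recovered for 100% of values (tolerance 0.02; 2.21 to 7.09 M reads in peaks), which limits precision at weak peaks.

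Groups came from the labels. Deprived groups were tested against time-matched controls by limma 3.58.1 in R 4.3.3 (group plus batch, intensity trend, all groups in 1 fit), with Benjamini-Hochberg adjustment over all genes or peaks and a threshold of 0.05. ATAC signal was used as log2(signal + 0.5). edgeR 4.0.16 on recovered reads, other filters, offsets, scalings, a replicate block and left-out libraries were alternatives. Scripts were tested on simulated data. This gene family and the lists were chosen with earlier results of these data known, although the symbol rule itself uses no value. Named members were the 10 largest called rises and falls at T27, T30 and T36, those called at both T27 and T30, the 8 widest daily ranges and up to 4 each way later; Kat8, Dnmt1, Sirt7, Hdac3 and members that did not pass were added after their values were seen. Marker lists covered neurons, glia, vessels, blood, choroid plexus and meninges; 0 of 5 blood markers passed at T27, T30 or T36. All other columns of per-sample values were used. The result of 1 gene outside the rule is not reported here.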

Additional observations from a re-analysis of the deposited data

Results flagged for a closer look

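In groups of 4 to 10 libraries, 1 library lay apart from the rest in 8 of 136 groups tested over 34 members, where chance flags about 1 in 20. The ratio of its gap to the nearest library over the group's range is given for each. At ZT12 this was 0.753 for Hdac6 in T12N4 (log2 level 5.24, nearest 5.17), 0.987 for Kat8 in T12N6 (4.42 and 4.33), 0.750 for Kdm6a in T12N5 (3.87 and 3.97) and 0.743 for Setd7 in T12N5 (6.38 and 6.23). At ZT0 it was 0.57 for Kdm3b in J70N1 (4.41 and 4.38), and at ZT18 it was 0.794 for Kdm6a in T18N4 (4.06 and 3.92). At ZT6 it was 0.814 for Kdm7a in J76N2 (4.47 and 4.58) and 0.711 for Tet3 in J76N1 (4.15 and 3.89).

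By the test of the difference itself, the change at T36 minus the change at T30 was -1.05 for Kdm6b, -0.36 for Hdac5, -0.28 for Kdm5c and -0.28 for Kdm2a on the log2 scale. It was 0.38 for Hdac9, 0.33 for Kat6b, 0.28 for Kdm1a and 0.28 for Setd2.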

How the results depend on the processing

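None of the 48 named changes reversed direction under any alternative run. Counts of members and peaks have no direction and were compared by size only. Of 751 alternative values of 48 named changes, 620 stayed on their side of the threshold and 131 lost the call, and 18 changes never lost it. Without the batch term 1 member fell at T36. With batch 1 libraries alone 7 fell at T30 and 3 rose at T36, and fitted on only the groups compared 3 fell at T27 and 2 at T30, with fewer libraries in each fit. With edgeR on recovered reads 1 promoter peak and 4 other peaks at T30 passed. Leaving out single libraries gave 6 to 10 rises and 5 to 7 falls at T27, 10 to 14 and 5 to 10 at T30, 2 to 5 and 0 to 1 at T36, 1 to 2 calls later, 25 to 31 members by time of day, 6 to 9 differences between T30 and T36, 0 to 1 promoter peaks and 1 to 12 other peaks at T30. Animal numbers did not pair the groups: same-numbered libraries had a median correlation of -0.0015 over 235 pairs, and others -2.07e-05 over 1559. With the number as a replicate block, 7 members rose and 8 fell at T27, 12 and 9 at T30, 4 and 0 at T36, 0 changed later, 25 varied with time of day and 5 differed between T30 and T36; 0 promoter and 7 other peaks passed. Except where stated, the cause was not tested. Groups of 3 and weak peaks limit what can be detected.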
